A study of Mus musculus with 12 samples.

Results

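The cornified envelope genes encode the proteins that keratinocytes lay down beneath their membrane as they die and become the outer layer of the epidermis. They were followed here in mouse dermis, from which the epidermis had been peeled away before the RNA was taken. The 10 genes listed were Sprr1a, Sprr1b, Sprr2d, Sprr2h, Sprr3, Sprr4, Lor, Ivl, Flg and Rptn, and a member was taken as measured where a probe set carried its symbol alone. By that rule 9 of the 10 were measured, with 14 of the 34945 probe sets that carried 1 symbol, and probe sets of 1 gene were averaged, which gave 9 of 18193 genes. Sprr4 had no such probe set and has no value here.

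The samples were 12 one-colour Affymetrix expression arrays of C57Bl6/CBA F1 mice, with 3 arrays each of P5 tail, P5 back, P1 tail and P1 back skin, where P1 and P5 are 1 and 5 days after birth. The study compared P1 back and tail dermis while seeking reasons why hair follicle formation in wounds varies with age and site. Its comparison of ages used a separate, published set of back fibroblasts, and it reports no P5 arrays. The labels name no transgene or treatment in any group. The study's methods give 3 mice per group at P1, and an array is treated here as a separate mouse. For P1, the tail skin was loosened in EDTA and the back skin in a dispase and trypsin mixture before the layers were pulled apart, so site and solution cannot be told apart. The P5 arrays carry the same description. The dermis was then digested to single cells, and the RNA is that of all cells left, with no sort for fibroblasts.

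The genes were chosen from the values of these same 12 arrays, in which they had been seen to differ between the groups. Their values are therefore given as a description, and no test was applied to them. The deposited values are on a log2 scale and the 12-array median of every probe set has been subtracted, so 0 is the middle array for that gene and 1 unit is a 2-fold difference. The centring removes levels, so no gene can be said to be more strongly expressed than another, and whether a gene stood above background cannot be read. The arrays differed in how widely their values spread, with an SD over all probe sets of 0.495 on P5 tail 2 and of 0.227 to 0.338 on the other 11 arrays. The P1 tail arrays spread widely for several members, with P1 tail 4 the lowest for every measured member and P1 tail 5 the highest for most. Over all genes, their mean correlations with their own group were 0.38 for P1 tail 4, 0.29 for P1 tail 5 and 0.48 for P1 tail 6. Values without P1 tail 4, and for some genes without P1 tail 5, are given below.

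Every signed site difference below is labelled tail minus labelled back, and a difference of ages is P5 minus P1. The labels of site were checked with genes that mark position and fat. Of all genes, 6.91% at P5 and 3.97% at P1 differed between the sites at an adjusted p under 0.05 (limma). Posterior Hox genes, which are more active towards the tail end of the body, were lower in the arrays labelled tail for 7 of 10 measured genes at P5 and for 7 of 10 at P1, with median log2 differences of -1.35 and -1.43. Hoxc13, at -0.62, was among the 7 at P5 and is counted again below among the hair shaft genes. Of 10 measured fat cell genes, 4 at P5 and 9 at P1 were higher under the tail label, although tail skin has little of the fat layer found under back skin (limma, described below). These markers go against the labels, and the direction for fat opposes the one given in the study. The names tail and back are kept as labelled throughout.

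As background, keratinocytes switch on these genes in order as they move from the basal layer to the surface. Involucrin (Ivl) and the envelope's scaffold come first, loricrin (Lor), the main protein of the envelope, and the small proline-rich proteins (Sprr) are then fastened to it by transglutaminases, and filaggrin (Flg) packs the keratin filaments inside. Nearly all of these genes lie side by side on mouse chromosome 3 in the epidermal differentiation complex, and dermal fibroblasts are not known for making their products.

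The sequences before the transcription starts of 6 members, 2 or more of each main pattern and the neighbour that ran against it, are shown because these genes share a neighbourhood but not a pattern. All 10 members matched a promoter in RefSeq (GRCm38.p6), and 200 bases that end just before the start are printed for 6 of them, 5′ to 3′ on the gene's own strand. Capitals mark 3 motifs that were searched for on both strands: TGANTCA, the AP-1 motif; TATAAA, the TATA box; and ATTTGCAT, the octamer. The first 3 genes are those that stood high in P1 back, and they lie at chr3:92438780-92438979 (minus strand), chr3:92338940-92339139 (plus strand) and chr3:92385485-92385684 (plus strand).
Sprr1b: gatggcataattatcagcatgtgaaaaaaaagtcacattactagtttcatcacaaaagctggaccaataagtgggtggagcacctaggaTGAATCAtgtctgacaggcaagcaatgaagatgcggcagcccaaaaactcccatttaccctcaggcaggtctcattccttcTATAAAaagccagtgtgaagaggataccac
Sprr2d: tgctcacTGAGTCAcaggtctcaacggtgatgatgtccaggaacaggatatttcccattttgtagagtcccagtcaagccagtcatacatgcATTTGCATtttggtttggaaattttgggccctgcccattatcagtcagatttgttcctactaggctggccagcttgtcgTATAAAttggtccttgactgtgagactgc
Sprr2h: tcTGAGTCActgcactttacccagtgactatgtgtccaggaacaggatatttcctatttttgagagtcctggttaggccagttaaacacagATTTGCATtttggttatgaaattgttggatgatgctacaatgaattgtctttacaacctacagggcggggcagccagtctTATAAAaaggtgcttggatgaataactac
Lor at chr3:92083143-92083342 (minus strand) and Flg at chr3:93273346-93273545 (plus strand) are the members that stood lowest in P5 back.
Lor: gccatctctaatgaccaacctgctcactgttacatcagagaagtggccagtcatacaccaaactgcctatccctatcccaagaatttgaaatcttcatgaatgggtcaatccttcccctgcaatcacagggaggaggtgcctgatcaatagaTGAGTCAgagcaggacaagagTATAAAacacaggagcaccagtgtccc
Flg: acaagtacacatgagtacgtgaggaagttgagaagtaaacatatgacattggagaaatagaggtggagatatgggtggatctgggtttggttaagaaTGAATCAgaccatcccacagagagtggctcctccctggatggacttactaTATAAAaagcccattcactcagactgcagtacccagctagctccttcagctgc
Sprr1a at chr3:92485882-92486081 (minus strand) is the neighbour of the Sprr group that ran the other way.
Sprr1a: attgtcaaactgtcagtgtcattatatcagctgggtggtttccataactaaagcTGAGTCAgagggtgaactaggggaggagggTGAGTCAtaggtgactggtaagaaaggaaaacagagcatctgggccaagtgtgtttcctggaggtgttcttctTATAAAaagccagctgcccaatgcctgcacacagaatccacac

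Within 250 bases before the start, the AP-1 motif was found in 8 of the 10 members, against 6.75% of 32851 mouse promoters of the same length. It began 48 bases upstream in Lor, 103 in Flg, 111 in Sprr1b, 193 in Sprr2d and 198 in Sprr2h. Sprr1a held a pair of matches, at 146 and 116 bases. The TATA box was found in 9 of 10 members and in 12.4% of all promoters, and the octamer in Sprr2d and Sprr2h alone among the members, at 108 and 109 bases upstream, and in 1.60% of all promoters. A match says only that these letters are present.

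Sprr1b, Sprr2d and Sprr2h encode small proline-rich proteins, which are rich in proline, glutamine and cysteine and cross-bridge other envelope proteins. They stood far above the other groups in P1 back. Sprr1b was at 1.04, 0.42 and -0.42 in P5 tail, -1.41, -0.62 and -0.95 in P5 back, -4.11, 0.50 and -1.29 in P1 tail, and 2.77, 3.32 and 3.24 in P1 back. All 3 arrays of P1 back lay above the other 9, and the arrays of P1 tail spread over more than those of any other group. Sprr2d was at -0.72, -0.62 and -0.19 in P5 tail, -0.70, 0.07 and 0.43 in P5 back, -0.73, 0.77 and -0.07 in P1 tail, and 3.45, 4.48 and 3.96 in P1 back. Outside P1 back, its 9 arrays overlapped. Sprr2h was at 0.18, -0.08 and -0.35 in P5 tail, -0.30, -0.39 and -0.14 in P5 back, -0.75, 1.03 and 0.08 in P1 tail, and 2.20, 3.00 and 2.45 in P1 back. Its probe set is of a kind that can bind transcripts of close relatives, and the Sprr2 genes are near copies of each other, so its signal may be shared with other Sprr2 genes.

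**Figure D1:**
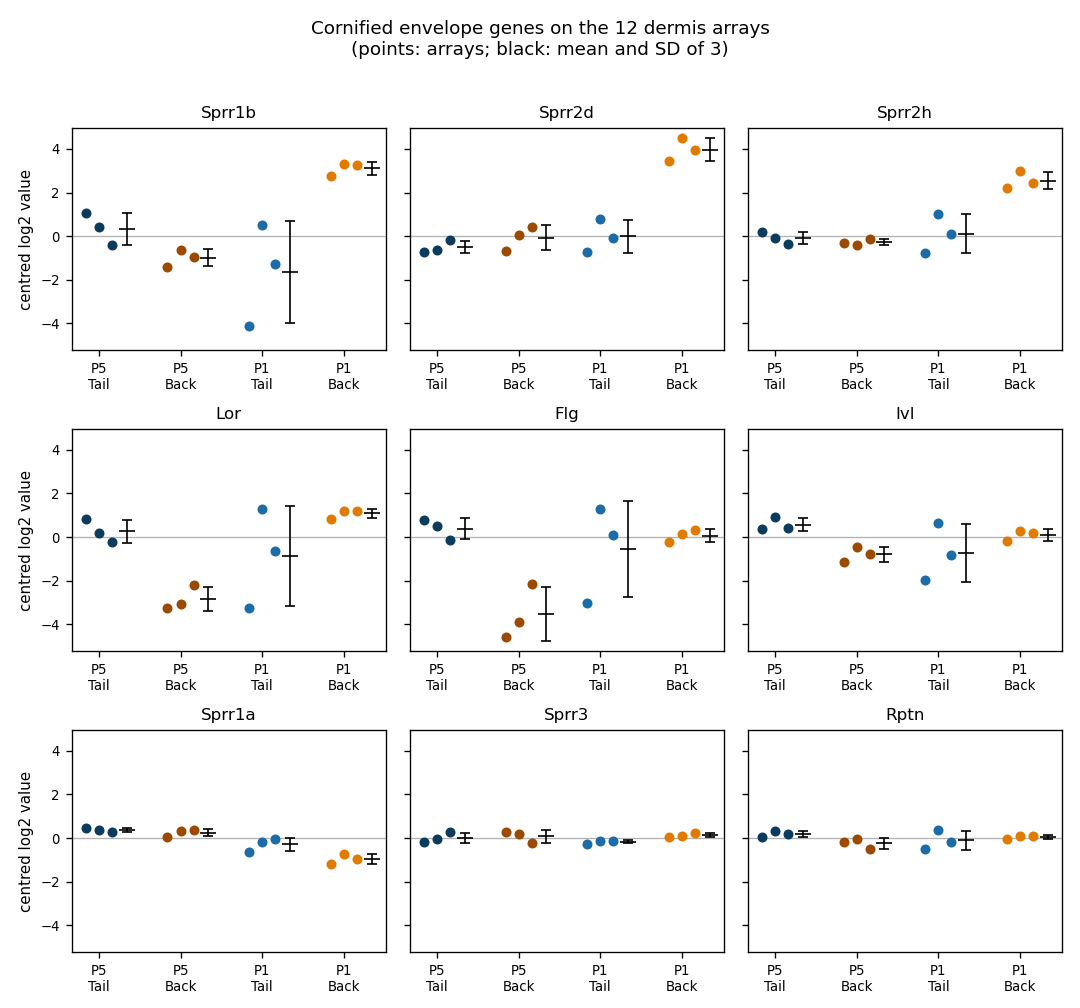
Centred log2 values (vertical axis) of the 9 measured members on each array, by group (P5 tail, P5 back, P1 tail, P1 back); points are arrays and black marks the mean and SD of 3. Sprr1b, Sprr2d and Sprr2h stand highest in P1 back, Lor and Flg lie between -4.56 and -2.15 in P5 back, and P1 tail 4 is the lowest P1 tail point in every panel.

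At P1 the site difference of this group was the widest among the members. Sprr1b averaged -1.63 ± 2.32 in P1 tail and 3.11 ± 0.30 in P1 back (SD, n = 3 each), 26.7-fold lower in tail. Sprr2d averaged -0.01 ± 0.75 in P1 tail and 3.96 ± 0.51 in P1 back (SD, n = 3 each), 15.7-fold lower, and Sprr2h 0.12 ± 0.89 and 2.55 ± 0.41, 5.39-fold lower. The arrays of the sites did not overlap for any of these 3 genes. Without P1 tail 4 the log2 differences were -3.50, -3.61 and -2.00, so each kept its direction. In a bulk sample, fewer cells of a type and less RNA in each cell cannot be told apart.

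At P5 the group no longer moved together between the sites. Sprr1b averaged 0.35 ± 0.73 in P5 tail and -0.99 ± 0.40 in P5 back (SD, n = 3 each), 2.53-fold higher in tail without overlap of the arrays. Sprr2d and Sprr2h overlapped between the sites at P5, with log2 differences of -0.45 and 0.20. In back, P5 lay below P1 by 17.1-fold for Sprr1b, 16.3-fold for Sprr2d and 7.11-fold for Sprr2h, with no overlap of arrays. In tail the ages overlapped for all 3, with log2 differences of 1.98, -0.50 and -0.20, and the 1.98 of Sprr1b was 0.74 without P1 tail 4.

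Lor, the most abundant protein of the mature envelope, and Flg, the precursor of the filaggrin units that bundle keratin and later yield natural moisturising compounds, followed a second pattern. Both were lowest in P5 back. Lor, averaged over 3 probe sets, was at 0.84, 0.17 and -0.22 in P5 tail, -3.23, -3.05 and -2.21 in P5 back, -3.27, 1.30 and -0.63 in P1 tail, and 0.85, 1.20 and 1.22 in P1 back. Flg was at 0.80, 0.49 and -0.11 in P5 tail, -4.56, -3.89 and -2.15 in P5 back, -3.01, 1.28 and 0.11 in P1 tail, and -0.24, 0.13 and 0.33 in P1 back. Among the other 9 arrays, only P1 tail 4 reached down as far as P5 back, for both genes. All 3 probe sets of Lor gave the same order, with differences between P5 tail and P5 back of 2.97, 3.02 and 3.31.

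Between the sites at P5, Flg averaged 0.39 ± 0.46 in tail and -3.54 ± 1.24 in back (SD, n = 3 each), 15.2-fold higher in tail. Lor averaged 0.27 ± 0.54 in P5 tail and -2.83 ± 0.54 in P5 back (SD, n = 3 each), 8.56-fold higher in tail. Neither overlapped between the sites. In back, Lor at P5 lay 15.1-fold below P1 and Flg 12.2-fold below, again with no overlap. At P1 the sites overlapped for both, and the values turned on single arrays of P1 tail. The P1 site difference was -1.95 for Lor, -0.75 without P1 tail 4 and -3.03 without P1 tail 5. For Flg it was -0.61, 0.62 without P1 tail 4 and -1.52 without P1 tail 5, so even its sign rested on 1 array. In tail, P5 minus P1 was 1.13 for Lor and 0.93 for Flg, against -0.07 and -0.30 without P1 tail 4. For Flg it was 1.84 without P1 tail 5.

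Ivl, the early scaffold protein of the envelope, had the same order of groups as Flg over a narrower range. Its mean over a pair of probe sets was 0.36, 0.90 and 0.43 in P5 tail, -1.16, -0.46 and -0.76 in P5 back, -1.98, 0.63 and -0.83 in P1 tail, and -0.20, 0.28 and 0.20 in P1 back. P5 tail lay above P5 back by 2.56-fold with no overlap, while in back P5 lay 1.85-fold below P1, also with no overlap. The P1 site difference of Ivl was -0.82 and overlapping, -0.19 without P1 tail 4 and -1.50 without P1 tail 5.

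Sprr1a, the closest relative of Sprr1b among the members, ran against the rest. It was at 0.45, 0.37 and 0.26 in P5 tail, 0.05, 0.32 and 0.37 in P5 back, -0.63, -0.20 and -0.05 in P1 tail, and -1.18, -0.75 and -0.96 in P1 back. P1 back was thus its lowest group, where Sprr1b was highest, and P5 back lay 2.31-fold above P1 back with no overlap. At P1 its site difference was 0.67, the single positive one among the 9 members, and at P5 the sites overlapped at 0.12. In tail, P5 lay 1.58-fold above P1 without overlap.

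Sprr3, a small proline-rich protein best known from the lining of the mouth and oesophagus, and Rptn, repetin, a fused S100-type protein of the upper epidermis, varied least. Sprr3 spanned 0.54 over the 12 arrays, with group means of 0.02 ± 0.23 in P5 tail, 0.08 ± 0.28 in P5 back, -0.17 ± 0.07 in P1 tail and 0.13 ± 0.10 in P1 back (SD, n = 3 each). Its P1 arrays did not overlap between the sites, at a difference of -0.30. Rptn spanned 0.89 as the mean of 3 probe sets that did not behave alike. One of them spanned 1.94, with a P5 site difference of 1.06, while the other 2 spanned 0.47 and 0.79, with P5 site differences of 0.01 and 0.14. The mean of 3 gave a P5 site difference of 0.40 for Rptn and a P1 site difference of -0.14.

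**Figure D2:**
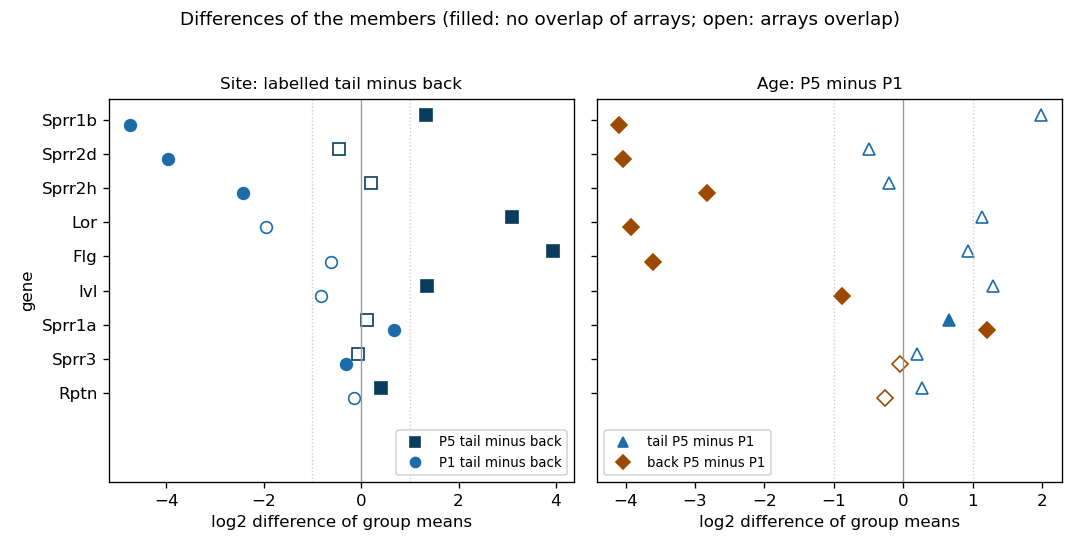
Log2 differences of group means (horizontal axis) for each member: labelled tail minus labelled back at P5 and P1 (left) and P5 minus P1 in tail and back (right); filled symbols have no overlap between the arrays of the groups, and dotted lines mark 2-fold. Sprr1b lies at 1.34 at P5 and -4.74 at P1, and the back symbols of 5 members lie beyond -2.

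Counted together, 4 of the 9 members were at least 2-fold apart between the sites at P5 with no overlap of arrays (Sprr1b, Lor, Ivl and Flg, all higher in tail), where 2.3% of all 18193 genes met the same rule. At P1 there were 3 of 9 (Sprr1b, Sprr2d and Sprr2h, all lower in tail), where 1.68% of all genes did. In tail between the ages none of the 9 met it, against 1.78% of all genes, and in back 6 of 9 did (Sprr1a above P1, and Sprr1b, Sprr2d, Sprr2h, Lor and Flg below), against 2.08%. Because the members were chosen on these contrasts, nothing is read from these shares. Without P1 tail 5, the counts were 5 of 9 for the sites at P1 and 3 of 9 for the ages in tail. The share of all genes was not counted in that setting, where fewer arrays make overlap rarer for every gene. The median site difference over the members was 0.40 at P5 and -0.82 at P1, where the median over all genes was -0.02 and -0.04. The P1 median was -0.27 without P1 tail 4 and -1.52 without P1 tail 5.

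Set against each other, the site differences at P5 and P1 differed by 6.08 for Sprr1b, 5.05 for Lor, 4.54 for Flg, 3.53 for Sprr2d, 2.63 for Sprr2h and 2.17 for Ivl (P5 difference minus P1 difference). The positive sign of Sprr2d and Sprr2h came from P1, where tail lay far below back, and that of Flg from P5, where tail lay far above back. Sprr1b, Sprr2h, Lor, Ivl, Flg and Rptn had site differences of opposite sign at the 2 ages, and Sprr1b alone had arrays without overlap at both. For Flg and Rptn the negative sign at P1 rested on P1 tail 4, without which the P1 differences were 0.62 and 0.06. Rptn at 0.54, Sprr3 at 0.24 and Sprr1a at -0.55 showed little of this.

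The members and their neighbours were then followed along chromosome 3. In the RefSeq order the members run Lor, Sprr2d, Sprr2h, Sprr1b, Sprr3, Sprr1a, Sprr4, Ivl, Flg and Rptn, with 49 protein-coding genes from Lor to Rptn, of which 34 were measured. Sprr1b, Sprr3 and Sprr1a are direct neighbours, and their P1 site differences were -4.74, -0.30 and 0.67. Between Ivl and Flg lie the late cornified envelope (Lce) genes. All 11 measured Lce1 genes were higher in P5 tail by mean, with site differences of 0.58 for Lce1g to 3.19 for Lce1a1, of which those of Lce1a1, Lce1a2 and Lce1c passed limma, while Lce3a, Lce3b, Lce3c and Lce3f, which in human skin are known from repair and psoriasis, ranged between -0.29 and 0.19. Hornerin (Hrnr), a filaggrin relative next to Flg, was at -2.55, 2.22 and 0.44 in P1 tail and at 2.57, 3.16 and 3.23 in P1 back, a difference of -2.95 that did not pass the test (adjusted p = 0.081, limma), while that of Flg was -0.61. Without P1 tail 4 these differences were -1.66 for Hrnr and 0.62 for Flg. Of the 25 measured genes of this stretch that are not members, 4 passed limma between the sites at P5 (Lce1a1, Lce1a2, Lce1c and Kprp, all higher in tail), a share of 16.0% beside 6.91% of all genes. At P1, where 3.97% of all genes were called, Prr9 was higher in tail by 0.71 (adjusted p = 0.022, limma) and Sprr2k lower. The stretch was delimited, and Hrnr and Prr9 named, after the values were known. The Lce1 genes are near copies, so their probe sets may share signal.

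**Figure D3:**
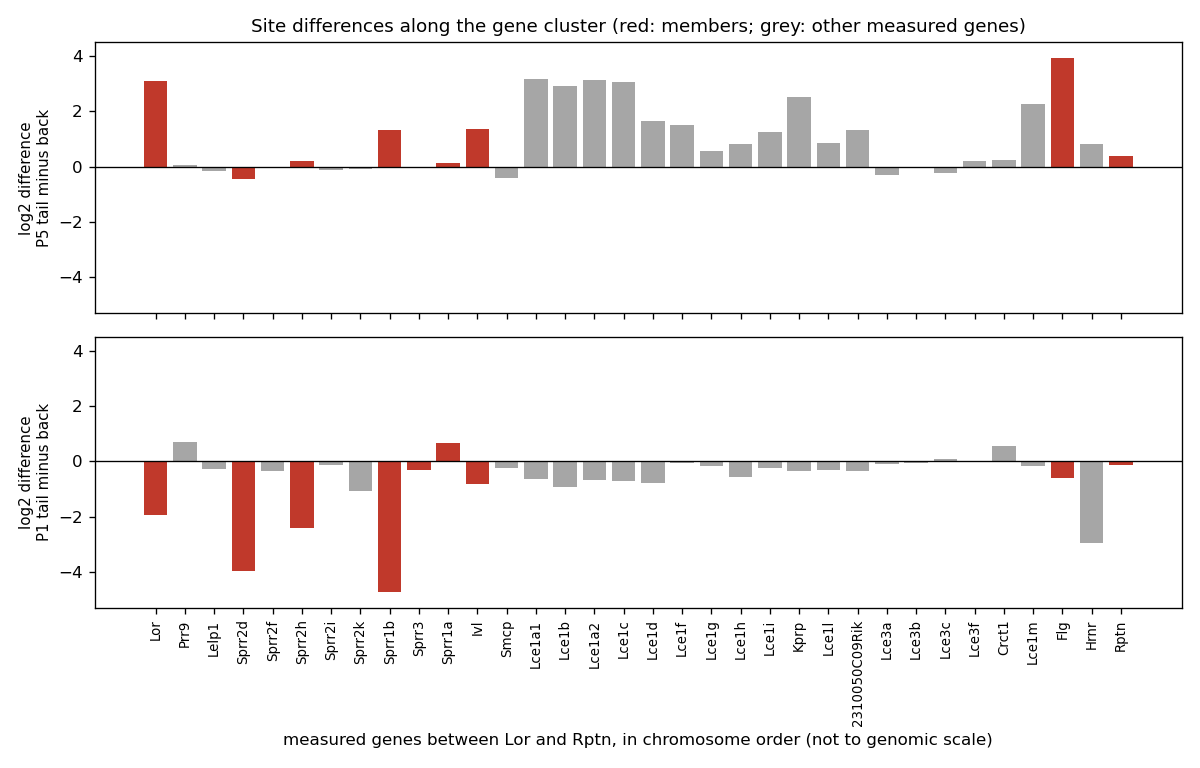
Log2 difference of labelled tail minus labelled back at P5 (upper) and P1 (lower) for the 34 measured genes from Lor to Rptn in chromosome order; bars start at 0, red bars are members and grey bars the other genes. Sprr1b, Sprr3 and Sprr1a, side by side, stand at -4.74, -0.30 and 0.67 at P1, and Flg stands at 3.93 at P5.

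Other genes of late differentiation were listed by role, with earlier results of these data known. They hold no member and were tested with limma over all genes. Of the 47 measured, 10 were higher and 1 was lower in P5 tail than in P5 back at an adjusted p under 0.05, where 6.91% of all genes were called, and their median difference was 0.73. Among the other envelope precursors, 4 of 25 were called, the same 4 genes as in the stretch on chromosome 3. These were Lce1a1 at a log2 difference of 3.19, Lce1a2 at 3.15, Lce1c at 3.08 and Kprp, a keratinocyte proline-rich protein, at 2.51 (limma, adjusted p between 0.023 and 0.033). Of 14 genes for filaggrin processing and shedding, 5 were higher, among them Casp14, the caspase that trims filaggrin, at 1.57 (adjusted p = 0.013, limma), and Asprv1, the protease SASPase, which acts on profilaggrin, at 1.59 (adjusted p = 0.020, limma). Klk5, a protease of shedding, was at 1.70 (adjusted p = 0.027, limma). The lower one was Spink12, a gene of the Kazal type serine protease inhibitor family, at 0.51, 0.07 and 0.37 in P5 tail and at 4.62, 5.02 and 5.08 in P5 back, a site difference of -4.59 (adjusted p = 2.7e-08, limma). Of the 8 genes of crosslinking and scaffold, Tgm5, a transglutaminase, was called at 1.31 (adjusted p = 0.00038, limma). The count of 11 was 18 (17 higher) when P1 tail 4 was left out of the shared spread, where 7.24% of all genes were called. That choice was made after seeing the data. The count was between 3 and 5 without 1 of P5 tail 2, P5 tail 3 or the P5 back arrays.

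At P1, 3 of the 47 late genes were called between the sites, 1 higher and 2 lower in tail, where 3.97% of all genes were called, and the median was -0.40. Tgm3, the transglutaminase that joins loricrin and the Sprr proteins, was at -1.82 ± 0.90 in P1 tail and 0.37 ± 0.30 in P1 back (SD, n = 3 each), a difference of -2.19 (adjusted p = 0.0078, limma). Sprr2k, a further Sprr2 gene, was at -0.16 ± 0.09 in P1 tail and 0.91 ± 0.18 in P1 back (SD, n = 3 each), lower in tail by the same test (difference of -1.07, adjusted p = 0.00087). Tchhl1, a trichohyalin-like gene, was higher in tail at 1.18 (adjusted p = 0.050, limma). Without P1 tail 5 the number called was 15, all lower in tail. The share of all genes called in that fit was not recorded.

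Between the ages in back, 4 of the 47 were higher and 5 lower at P5 than at P1 with all 12 arrays sharing the spread, where 4.25% of all genes were called. Hrnr fell to -1.05 ± 0.54 in P5 back, against 2.99 ± 0.36 in P1 back (SD, n = 3 each; difference of -4.04, adjusted p = 0.016, limma). Alox12b, a lipoxygenase that readies barrier lipids for the envelope, fell by 3.28, and Asprv1 and Casp14 fell by 1.49 and 1.42 (limma, adjusted p between 0.0054 and 0.040). Spink12 rose by 5.22 (adjusted p = 5.6e-09, limma) and Padi3, a deiminase of filaggrin and trichohyalin, by 1.59 (adjusted p = 0.0062, limma). Tchhl1 rose by 2.21 (adjusted p = 0.0012, limma). The number lower depended on the fit. It was 2 or 3 without any 1 of the 6 back arrays. With P1 tail 4 left out of the shared spread it was 17, where 4.48% of all genes were called. It was 22 when only the 6 back arrays were fitted. By the methods' t-test it was 24 at an unadjusted p under 0.05 and 0 after adjustment. It was 0 with the replicate number as a block, which also joins P1 and P5 arrays of different mice. In tail, 3 of the 47 rose at P5, where 5.3% of all genes were called: Cdsn, the corneodesmosome protein, Tgm5 and Klk7, by 1.20, 1.18 and 1.07 (limma, adjusted p between 0.0013 and 0.041). That number was 12 without P1 tail 5, 8 without P5 tail 4, and 1 without P1 tail 4, P1 tail 6 or P5 tail 2. Without P1 tail 4, 2.59% of all genes were called.

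The site difference itself differed between the ages for 6 of the 47 late genes by the interaction term of limma, where 2.87% of all genes were called. The P5 difference exceeded the P1 difference for Alox12b by 3.73, Asprv1 by 2.30, Casp14 by 2.21, Klk7 by 1.53 and Sprr2k by 0.97 (adjusted p between 0.023 and 0.035), and Spink12 went the other way at -4.66 (adjusted p = 1.7e-06). Alox12b had site differences of 1.87 at P5 and -1.86 at P1, neither of which passed limma by itself (adjusted p of 0.073 and 0.11), and the P1 value was -1.12 without P1 tail 4. The number called was 27 without P1 tail 5 and 9 without P5 tail 4. It was between 1 and 4 without 1 of P1 tail 6, P1 back 5, P1 back 6, P5 tail 2, P5 tail 3 or the P5 back arrays. Without P1 tail 4 and P1 back 1 it was 7 and 6. Without P1 tail 4, 2.37% of all genes were called.

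Genes that build the lipid part of the barrier and regulators of these genes were listed as well. Of 15 measured lipid genes, 5 were higher in P5 tail than in P5 back, where 6.91% of all genes were called, among them Elovl4, which elongates very long fatty acids, at 2.17 (adjusted p = 0.00023, limma), Acer1, a ceramidase, at 1.35 (adjusted p = 0.0068, limma) and Slc27a4, a fatty acid transporter, at 1.22 (adjusted p = 0.00022, limma). Of 18 regulators, 3 were called between the sites at P1, where 3.97% of all genes were. Fosl1, a subunit of AP-1, was at -0.11 ± 0.76 in P1 tail and 1.48 ± 0.24 in P1 back (SD, n = 3 each), a difference of -1.59 (adjusted p = 0.011, limma). Maf at 0.86 and Prdm1 at 0.67, both transcription factors of terminal differentiation, were higher in P1 tail (limma, adjusted p of 0.00042 and 0.013). The study also names Prdm1 among genes of fibroblasts that form the papillary dermis. At P5, 2 of the 18 were called, where 6.91% of all genes were. Cebpa and Cebpb, which act as keratinocytes leave the cycle, were higher in tail by 1.20 and 0.58 (limma, adjusted p of 2.7e-05 and 0.019). In unsorted dermis, the cells from which the signal of these regulators came cannot be told.

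Markers of keratinocytes also differed between the groups, and single markers did not all follow the members. The mean over 13 spinous layer genes, which mark the layers below the envelope-forming cells, lay between -0.06 and 0.40 in P5 tail, -0.78 and -0.14 in P5 back, -1.24 and 0.37 in P1 tail, and 0.72 and 1.07 in P1 back. The mean over the 9 members lay between -0.02 and 0.31 in P5 tail, -1.24 and -0.68 in P5 back, -1.69 and 0.62 in P1 tail, and 0.85 and 1.31 in P1 back. P1 tail 4 was the lowest array and P1 tail 5 the highest of its group on both. Of the 13 spinous genes, 2 were higher and 1 lower in P5 tail than in P5 back, and 1 was higher and 2 were lower in P1 tail than in P1 back (limma), where 6.91% and 3.97% of all genes were called. In back, 6 of 13 were lower at P5 than at P1, where 4.25% of all genes were called. Krt1 and Krt10, the suprabasal keratin pair, fell by 2.49 and 1.63 in P5 back against P1 back (limma, adjusted p of 0.023 and 0.015). Krt2, a keratin of the upper spinous layer, was at -1.56, -1.56 and -1.68 in P5 tail, 1.56, 2.86 and 2.67 in P5 back, -2.50, -1.77 and -1.82 in P1 tail, and 5.32, 5.66 and 5.64 in P1 back. It was thus lower in tail at both ages, by differences of -3.96 at P5 and -7.57 at P1 (limma, adjusted p of 7.6e-06 and 3e-08), while Lor, Flg and Ivl stood higher in P5 tail. Krt77, a further suprabasal keratin, ran the other way and was at 4.09, 4.12 and 3.32 in P5 tail, -2.50, -0.56 and -0.34 in P5 back, 0.34, 1.89 and 0.79 in P1 tail, and -1.25, -0.83 and -0.87 in P1 back. Its site differences were 4.98 at P5 and 1.99 at P1 (limma, adjusted p of 7.8e-05 and 0.045).

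Basal keratinocyte genes, which mark the dividing layer next to the dermis, were also called in both site comparisons. Of 13, 6 were higher in P5 tail than in P5 back, led by Lamb3 at 1.77, Col17a1 at 1.57 and Krt15 at 1.33, and 2 were lower in P1 tail than in P1 back, Krt5 and Col17a1 (limma), beside 6.91% and 3.97% of all genes. Between the ages, 6 of the 13 were lower at P5 in back and 6 were higher at P5 in tail (limma). Of all genes, 4.25% and 5.3% were called in these comparisons. The mean over the list lay between 0.21 and 0.59 in P5 tail, -0.48 and -0.31 in P5 back, -0.43 and 0.01 in P1 tail, and -0.05 and 0.22 in P1 back. Stress keratins, which keratinocytes make when wounded or hyperproliferating, had 2 of 4 lower in P1 tail than in P1 back, beside 3.97% of all genes. Krt16 was at -0.97, 0.81 and -0.15 in P1 tail and 3.88, 4.17 and 4.17 in P1 back, a difference of -4.18 (adjusted p = 2.7e-05, limma), and Krt6b differed by -3.80 (adjusted p = 0.00013, limma). At P5 the other pair, Krt6a at 1.73 and Krt17 at 0.77, was higher in tail (limma, adjusted p of 0.0021 and 0.0015). In back, Krt16 and Krt6b had P5 minus P1 differences of -4.65 and -4 (limma, adjusted p of 3.6e-05 and 2e-04). They were the 2 of 4 called there, beside 4.25% of all genes. The mean over stress keratins lay between 0.35 and 0.92 in P5 tail, -0.39 and -0.09 in P5 back, -0.38 and 0.17 in P1 tail, and 1.29 and 2.08 in P1 back.

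**Figure D4:**
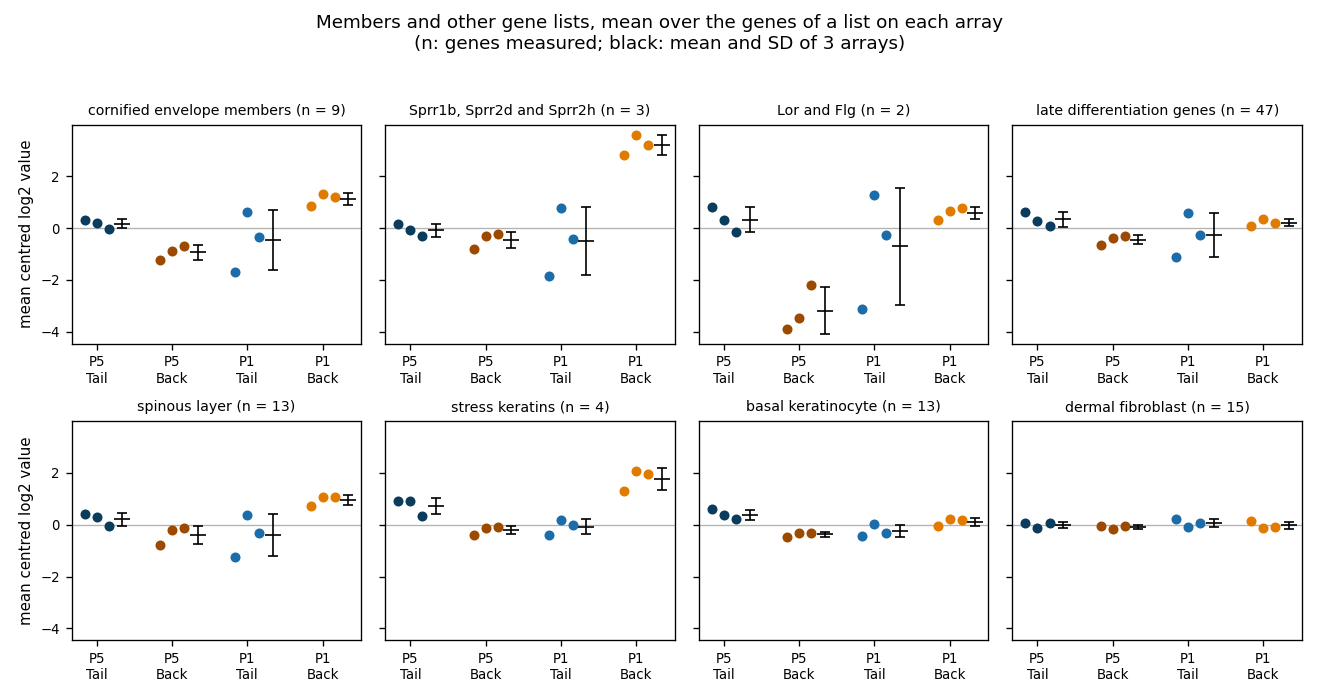
Mean centred log2 value (vertical axis) over the genes of 8 lists on each array, by group (P5 tail, P5 back, P1 tail, P1 back); points are arrays and black marks the mean and SD of 3. The spinous layer and stress keratin lists are highest in P1 back, at 0.72 to 1.07 and 1.29 to 2.08, and the dermal fibroblast list stays between -0.17 and 0.22.

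Hair follicle genes ran differently. Of 8 genes of the inner root sheath, 7 were higher in P1 tail than in P1 back and all 8 were higher in P5 back than in P1 back (limma), where 3.97% and 4.25% of all genes were called. The mean over the list lay between 0.01 and 0.47 in P5 tail, 0.18 and 0.49 in P5 back, -0.48 and 0.16 in P1 tail, and -1.12 and -0.85 in P1 back. Of 12 hair shaft genes, 6 were lower in P5 tail than in P5 back, with a median difference of -1.04, 11 were higher in P5 back than in P1 back, and 5 were higher in P5 tail than in P1 tail (limma), where 6.91%, 4.25% and 5.3% of all genes were called. Of 15 dermal fibroblast genes, 4 were higher and 2 lower in P5 tail than in P5 back, where 6.91% of all genes were called, and 2 were higher in P1 tail than in P1 back, where 3.97% were (limma). Fap at -0.87, Twist1 at 0.79 and Dpt at 0.69 were among the widest of those at P5 (limma, adjusted p between 0.00042 and 0.012). The calls ran both ways at P5, and at P1 both were higher in tail. The median site difference was -0.04 at both ages, and the list's mean stayed between -0.17 and 0.22 on all 12 arrays. Because values are centred, which of these markers stood near 0 signal cannot be read, and the part of keratinocytes left in the dermis in the members' differences was not tested.

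Among genes that are not members, those whose values were nearest to the mean of the 9 members over the 12 arrays were found by the root mean square difference of centred log2 values, with no test. They were Gdpd2 at 0.202, Stfa3 at 0.280, Krt10 at 0.281, Aox4 at 0.282, Dlg2 at 0.287, Krt1 at 0.306, Slc5a1 at 0.308, Klk11 at 0.316, Wfdc5 at 0.322 and Krtdap at 0.329. Genes of the other lists were kept in this search. Krt10, Krt1 and Krtdap are on the spinous layer list, and Hrnr and the Lce1 genes named below are on the list of other envelope precursors. Gdpd2, the nearest, was at -1.47, 1.00 and -0.35 in P1 tail and 0.84, 1.46 and 1.39 in P1 back, so it too was lowest on P1 tail 4. For Sprr1b, Skint10 was nearest at 0.880, then Ces2g at 0.949, H60c at 0.952, Serpinb12 at 0.959 and Hrnr at 1.012. This distance grows with the range of a profile, and Sprr1b spanned 7.42 over the arrays. Its distances are thus not on the same scale as those of the mean. Lor was nearest to Lce1a2 at 0.610, Lce1a1 at 0.646, Lce1c at 0.653, Lce1b at 0.657 and the protease gene Tmprss4 at 0.663.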

How the data were processed

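The authors normalised RNA of dermis on 12 arrays with RMA (GeneSpring). The values they deposited are log2 values with the 12-array median of every probe set subtracted, and they were used without further scaling (largest absolute column median 0.0232). The methods' filter on the lowest 20% of genes needs levels and was not applied. Probe sets with 1 symbol in the platform annotation (34945, against 932 with several and 9160 with none here) were averaged into 18193 genes, and 64 control probe sets were left out.

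The members and lists were chosen with earlier results of these data known. Members are described by array values, mean and SD, and by whether arrays overlap. Other genes were tested with limma 3.58.1 (lmFit, eBayes) in R 4.3.3, all 12 arrays in 4 groups, with Benjamini-Hochberg adjustment over all genes at 0.05, and the procedure was tested on simulated data. Named from each list were up to 4 genes with the largest called difference in the comparison described, besides all members and the nearest profiles (10 for the mean of the members, 5 each for Sprr1b and Lor); other named genes were chosen after their values were seen. Promoters and gene order came from RefSeq (GRCm38.p6). The number of arrays limits the precision. Alternatives were array centring, the median over probe sets, shared-sequence probe sets left out, trend and robust eBayes, array weights, only the arrays compared, the methods' t-test, a 4-fold threshold, the replicate number as a block, and each array left out.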

Additional observations from a re-analysis of the deposited data

Results flagged for a closer look

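Sprr1b had site differences of opposite sign at the 2 ages, 1.34 at P5 and -4.74 at P1 (labelled tail minus labelled back), with no overlap of arrays at either age. The difference between the ages was not tested, because the gene was chosen on these values. Among the 47 measured late differentiation genes, 6 had a site difference that differed between P5 and P1 by the interaction term of limma at an adjusted p under 0.05: Spink12, Sprr2k, Klk7, Casp14, Asprv1 and Alox12b.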

How the results depend on the processing

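The values of single members are not levels, and those of P1 tail rest on 3 arrays that spread widely. The 20% filter could not be run. With 1 array left out, the median over the members lay between 0.27 and 0.51 for the site at P5, -1.52 and -0.27 for the site at P1, -3.00 and -2.61 for the ages in back, 0.07 and 0.78 for the ages in tail, and 2.19 and 3.08 for site by age. The number of members past 2-fold without overlap lay between 3 and 4, 3 and 5, 6 and 7, and 0 and 3 for the first 4 of these. At 4-fold it was 2 of 9 for the site at P5. The share of all genes was not counted under these settings, so nothing is read from these numbers. Late genes called lay between 3 and 12 (P5 site), 2 and 15 (P1 site), 6 and 7 (back, 4 higher and 2 or 3 lower), 1 and 12 (tail) and 1 and 27 (site by age). Deviations from the group mean correlated at 0.26 and -0.01 for same-numbered tail and back arrays at P1, and at 0.17 and -0.02 at P5. The other pairs of arrays lay between -0.34 and 0.38 at P1 and between -0.13 and 0.09 at P5. With so few same-numbered pairs, whether the numbers pair the samples cannot be told. As a block, the number also joins P1 and P5 arrays. These are of different mice, so the block models no known pairing. With the number as a replicate block, late genes called were 21 at P5, 8 at P1, 4 in back (all higher), 4 in tail and 25 for site by age, and the members' medians were 0.49, -0.64, -2.37, 0.79 and 2.63. With array weights they were 3 at P5, 20 at P1, 26 in back and 1 in tail, and with only the arrays compared 18 at P5, 28 in back and 1 in tail. The methods' t-test called 1 at P5, 0 at P1, 1 in back (higher) and 0 in tail after Benjamini-Hochberg, and 23, 7, 31 and 3 at an unadjusted p under 0.05. Trend and robust eBayes gave 3 for site by age. With P1 tail 4 left out of the shared spread, chosen after seeing the data, there were 18 at P5 and 21 in back. Of all genes, 7.24% and 4.48% were called in that fit. Under the other settings the share of all genes called was not recorded, so those counts cannot be set against it. The causes were not tested. Array centring, the median over probe sets and leaving out shared-sequence probe sets changed no count of late genes by over 1.5 times and no median over the members by more than the spread between replicates.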
